A study of Mus musculus with 6 samples.

Results

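Ligands and receptors of the tumour necrosis factor (TNF) superfamily were followed in whole mouse tumours with and without treatment. Members were all genes whose symbol starts with Tnfsf or Tnfrsf, together with Tnf, Lta, Ltb, Ltbr, Fas, Fasl, Cd27, Cd70, Ngfr, Edar and Eda2r, with a summed count of at least 15 over the 6 libraries. Of 28368 genes, 42 matched by name and 41 passed this minimum; Cd70 did not, with 10 counts in control 2 and 0 elsewhere, and Edar and Tnfrsf17 were not analysed here. The members comprised 15 ligands, 24 receptors, the read-through transcript Tnfsfm13 and the antisense RNA Tnfsf13os. Polyadenylated RNA was sequenced from 3 tumours labelled as having received a therapy called MS-DF-MS for 12 h and from 3 tumours of an untreated control group. By its title, the series concerns implanted depots that release first a STING agonist and then an apoptosis inducer. Neither the drugs, the mouse strain and age nor the tumour type are named in the labels, and a group with an empty depot was not analysed here, so effects of drug and of implantation cannot be told apart. Whether each library is a separate animal is not stated, and p-values measure the spread between these libraries, which may be partly technical.

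TNF superfamily ligands are mostly trimeric membrane proteins that can be shed, and they act by clustering their receptors. Receptors with a cytoplasmic death domain recruit FADD or TRADD and can start apoptosis, whereas the others bind TRAF adaptors and activate NF-kB and survival or costimulatory programmes. Some receptors lack a signalling domain and act as decoys that bind ligand without relaying it. In tumours the family is best known for TRAIL and Fas ligand, which kill transformed cells, for TNF itself, and for the T cell costimulators 4-1BB, OX40, GITR and CD27.

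Library totals lay between 57017043 and 66634551 counts. On the first principal component of log2 CPM (library-scaled counts) treated 3 stood apart, at 72.9 against -37.9 to 13.3 for the other 5. Treated 1 held more keratinocyte marker RNA than the others (111 against 4.27 to 5.74 CPM summed over 10 genes). Neutrophil markers summed to 74.3, 25.5 and 8.75 CPM in treated 1, 2 and 3 and to 7.53 to 9.84 CPM in controls. All 10 tested by edgeR had a log2 fold change above 0, 6 of them at an unadjusted p under 0.05 and 0 past the adjusted threshold. The part of either marker set in the results was not tested. Pigment cell markers were abundant in both groups, with 10 of 10 genes at 20.3 FPKM (fragments scaled by gene length and library size) or more. Levels are given below in CPM scaled by edgeR's TMM method for comparisons between libraries and in FPKM for comparisons between genes. In bulk tumour RNA, fewer cells of a type and less RNA per cell cannot be told apart.

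Of the 41 members, 35 passed the filter on low counts and were tested. Tnfsf10, Tnfsf9 and Tnfrsf26 rose, and 0 members fell (edgeR quasi-likelihood test, Benjamini-Hochberg adjusted p under 0.05 over 18049 genes). Over all genes tested, 1.36% rose and 0.249% fell by the same rule, and 8.57% of the tested members rose. At an unadjusted p under 0.05, 8 members were higher and 0 were lower in treated tumours, while of all genes tested 9.12% were higher and 6.9% lower by that rule. DESeq2 and limma-voom also called 0 members lower. The median log2 fold change of the tested members was 0.03, with 19 above 0 and 16 below, against -0.003 over all genes tested. The treated libraries lay above all controls in 8 of the 35 members and below them in 1, while 12% and 11.2% of all genes tested did so. The 6 members below the filter were Lta, Tnfsf4, Tnfsf8, Tnfsf14, Tnfrsf13c and Tnfsf13os, and none passed the threshold in an edgeR fit without a filter (adjusted p from 0.398 to 0.98).

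**Figure D1:**
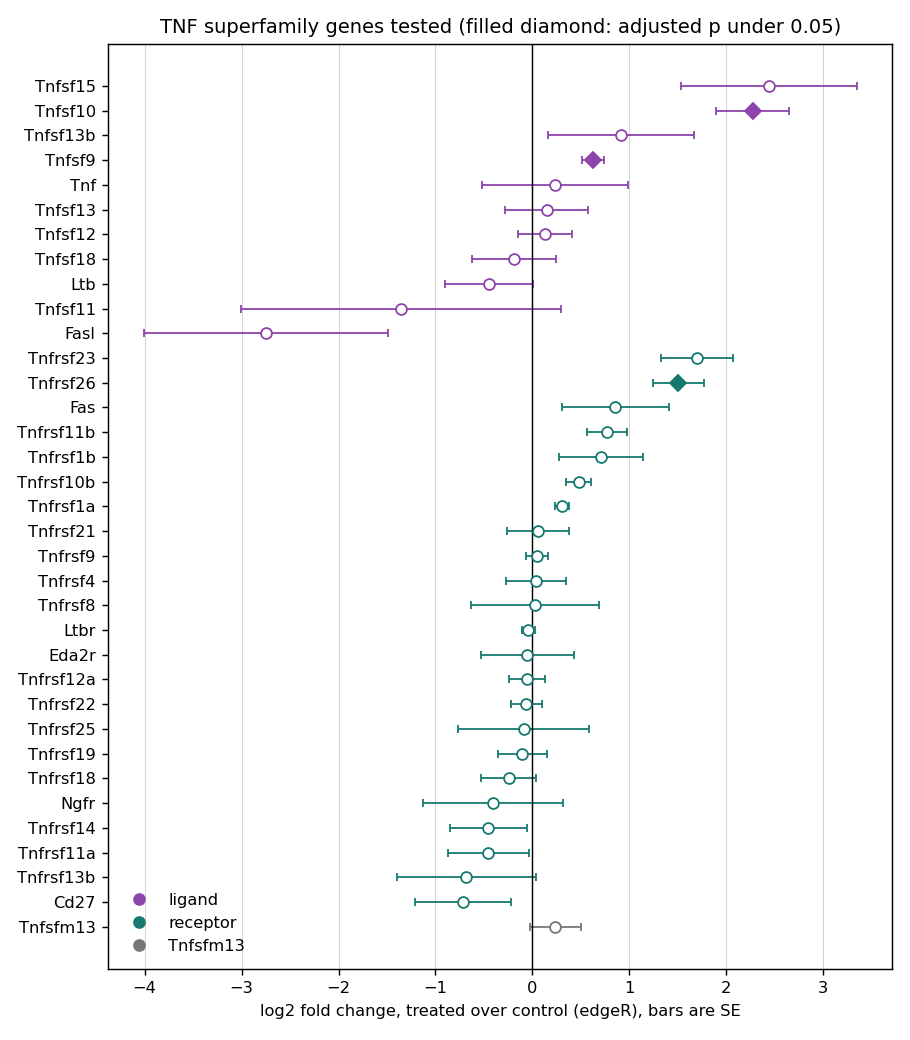
Log2 fold change of treated over control tumours (x axis) for the 35 members tested by edgeR, ligands above and receptors below, with bars of 1 SE (3 libraries per group). Filled diamonds mark the 3 members with an adjusted p under 0.05, Tnfsf10, Tnfsf9 and Tnfrsf26, all to the right of 0.

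Among the ligands that can induce cell death, the TRAIL gene Tnfsf10 rose 4.84-fold, while the Fas ligand gene had counts near the limit of detection and did not pass the threshold. Tnfsf10 (ENSMUSG00000039304, chromosome 3, 27317028 to 27342427, plus strand) stood at 6.26, 10.6 and 5.27 CPM in treated 1, 2 and 3, against 0.942, 1.52 and 2.12 CPM in controls 1, 2 and 3. The lowest treated library was above the highest control, as for 12% of all genes tested. The log2 fold change was 2.27 ± 0.38 (SE, n = 3 per group, edgeR adjusted p = 0.0286). Leaving out treated 1 or treated 3 kept this call, and leaving out treated 2 or any 1 control ended it (highest edgeR adjusted p 0.163). The 15 interferon-response markers used for comparison, a set chosen with their rise already known, summed to 2219 to 3258 CPM in treated tumours, against 466 to 709.5 CPM in controls, and the part of that response in the level of Tnfsf10 was not tested.

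The RefSeq promoter of Tnfsf10 (GRCm38.p6, chr3:27316827-27317126, plus strand, 300 bases) is shown because this ligand had the largest rise among the members that passed the threshold. Capitals mark the 2 stretches of 10 bases closest to the core of the interferon-stimulated response element (GAAA, any 2 bases, GAAA). One is read on the opposite strand and begins 53 bases before the RefSeq start of transcription. The other is on the same strand and begins 32 bases before that start. The gene span given above begins inside this window, at 27317028. The first stretch crosses the beginning of that span, and the second lies within it.
Tnfsf10 promoter: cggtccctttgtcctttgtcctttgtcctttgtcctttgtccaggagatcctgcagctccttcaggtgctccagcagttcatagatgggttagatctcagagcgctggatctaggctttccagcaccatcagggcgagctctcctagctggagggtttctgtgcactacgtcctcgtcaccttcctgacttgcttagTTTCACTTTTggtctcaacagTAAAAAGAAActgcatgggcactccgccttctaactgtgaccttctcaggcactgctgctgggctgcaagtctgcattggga
Each marked stretch differs from that core at 1 position, and 35.4% of all 32851 promoters of this length in the table hold a stretch at least as close; this looser search was added after the exact one. Exact matches to that core, to the gamma-activated site TTCNNNGAA and to the NF-kB motif (GGG, any 2 bases, TTTCC), searched on both strands, are not in this window. These are descriptions of letters, not of binding. The table has no entry for Tnfsf9 or Tnfrsf26.

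Fasl, the ligand of Fas carried by cytotoxic lymphocytes, was counted 8, 0 and 0 times in treated 1, 2 and 3 and 15, 12 and 25 times in the controls. All 3 controls lay above all treated libraries, as in the 11.2% of all genes tested with the treated group below. A count of 0 allows up to 0.0466 CPM in treated 2 and 0.0452 CPM in treated 3, counting error only. The log2 fold change was -2.75 ± 1.26 (edgeR adjusted p = 0.339). The 10 markers of NK cells, which make Fas ligand, summed to 12.0, 7.13 and 2.20 CPM in treated 1, 2 and 3 and to 7.38 to 10.7 CPM in the controls, with no call among 7 tested by edgeR and 1 lower at an unadjusted p under 0.05. Markers of T cells, another cytotoxic lineage, summed over 17 genes to 28.3 to 40.6 CPM in treated tumours and 41.6 to 55.7 CPM in controls, so the groups were apart in the same direction as for Fasl. The part of either cell type in the level of Fasl was not tested. Tnfsf15 (TL1A), the ligand of the death receptor encoded by Tnfrsf25, reached 24, 34 and 33 counts in treated tumours, against 8, 8 and 0 in controls. The groups did not overlap, and the log2 fold change of 2.44 ± 0.90 rests on these few counts (edgeR adjusted p = 0.244).

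In mice TRAIL signals death through Tnfrsf10b and is also bound by receptors without a death domain, the products of Tnfrsf22 and Tnfrsf23, and by the secreted osteoprotegerin, encoded by Tnfrsf11b. Tnfrsf26 encodes another receptor without a death domain. Tnfrsf26 rose 2.84-fold, and Tnfrsf23, Tnfrsf11b and Tnfrsf10b had higher values in every treated library without passing the threshold. Tnfrsf22 was at about the same level in both groups.

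Tnfrsf26 (ENSMUSG00000045362, chromosome 7, 143607659 to 143628722, minus strand) had 2.51, 2.52 and 2.32 CPM in treated libraries, against 1.07, 0.761 and 0.754 CPM in controls. The 2 groups were each tight and did not overlap, and the log2 fold change was 1.51 ± 0.26 with an edgeR adjusted p of 0.0331. The call was lost whenever any 1 of the 6 libraries was left out (edgeR adjusted p from 0.0569 to 0.188). Tnfrsf23 (143665809 to 143685872) had 6.62, 8.65 and 5.09 CPM in treated libraries and 2.84, 2.34 and 1.07 CPM in controls. Its log2 fold change was 1.70 ± 0.37 (edgeR adjusted p = 0.0777), past the threshold with DESeq2 and with limma-voom and sample quality weights. Tnfrsf22, which lies between them (143634806 to 143649661), had 10.4, 13.5 and 15.6 CPM in treated libraries, against 14.5, 13.4 and 13.4 CPM in controls. The groups overlapped (log2 fold change -0.06 ± 0.16, edgeR adjusted p = 0.896).

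**Figure D2:**
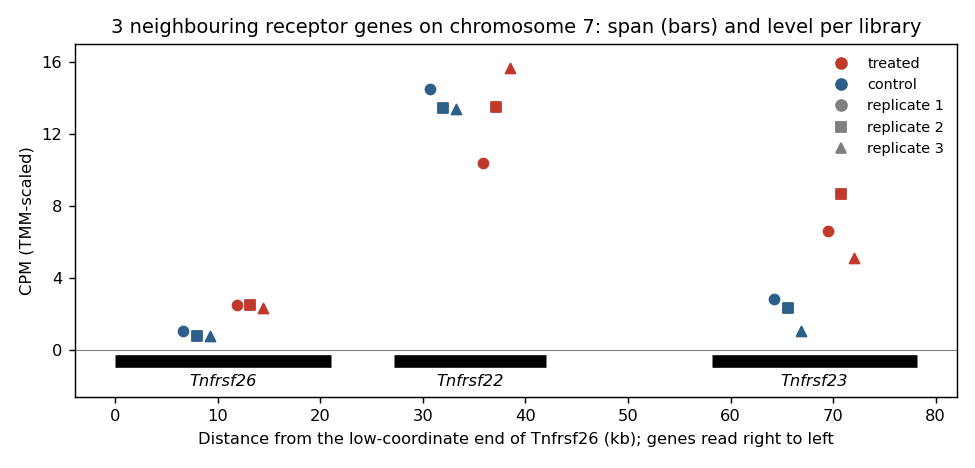
Level per library (y axis, CPM) of 3 receptor genes drawn over their positions on chromosome 7 (x axis, distance in kb, black bars are gene spans; red treated, blue control, symbols by replicate). Treated libraries lie above all controls for Tnfrsf26 and Tnfrsf23, and both groups overlap for Tnfrsf22.

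The ratio of Tnfrsf23 to Tnfrsf22 in FPKM was 0.676, 0.680 and 0.345 in treated and 0.206, 0.184 and 0.0851 in control libraries, a difference of 1.87 on the log2 scale. The ratio of Tnfrsf26 to Tnfrsf22 was 0.315, 0.244 and 0.193 in treated and 0.0959, 0.0744 and 0.0735 in control libraries, a difference of 1.61. The groups did not overlap for either ratio. These and 2 further ratios given below were chosen after the values had been seen and are descriptions with no test.

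Tnfrsf22 and Tnfrsf23 are close copies, and their coding sequences from GENCODE M21 (GRCm38) are shown around their longest shared run to make plain how far reads can be split between them. Bases are counted from the start codon, and capitals mark the 3 bases that differ in this stretch.
Tnfrsf22, bases 406 to 537: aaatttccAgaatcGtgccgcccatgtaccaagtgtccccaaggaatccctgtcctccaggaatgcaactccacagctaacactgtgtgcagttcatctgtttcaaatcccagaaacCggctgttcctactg
Tnfrsf23, bases 376 to 507: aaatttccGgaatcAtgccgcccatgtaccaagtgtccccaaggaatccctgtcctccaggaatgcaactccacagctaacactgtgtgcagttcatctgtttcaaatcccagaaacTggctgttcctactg
The run shared between the marked bases is 102 bases long, and the 2 coding sequences are 90.7% identical over 528 aligned bases. Of the stretches of 50 bases in the exons, 27.4% in Tnfrsf22 and 18.0% in Tnfrsf23 also occur in another gene, against 0% in Tnfrsf26. For stretches of 150 bases, the read length, the shares are 9.86% and 4.52%. Shared stretches of Tnfrsf23 occur in Tnfrsf22, while those of Tnfrsf22 occur in Tnfrsf23 and also in Gm47486 and AC136710.2, whose counts are not given here. The split of reads between Tnfrsf22 and these genes, Tnfrsf23 among them, is therefore uncertain. The antisense gene E230032D23Rik, which shares 164 exonic bases with Tnfrsf23 and 107 with Tnfrsf26, had 0 to 7 counts per library.

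The signalling receptor and the soluble decoy had smaller differences. Tnfrsf10b, the death receptor for TRAIL, had 9.68, 9.09 and 9.68 CPM in treated libraries, against 6.86, 7.17 and 6.40 CPM in controls, without overlap. Its log2 fold change was 0.48 ± 0.13 (edgeR adjusted p = 0.136). Tnfrsf11b, the gene of osteoprotegerin, had 31.4, 41.0 and 22.8 CPM in treated libraries, against 16.2, 19.3 and 20.3 CPM in controls. Its groups did not overlap either, with a log2 difference of 0.77 ± 0.20 (edgeR adjusted p = 0.124), and the adjusted p was 0.00103 with DESeq2 and 0.0262 with edgeR without treated 3. The FPKM ratio of Tnfsf10 to Tnfrsf10b was 0.671, 1.21 and 0.562 in treated and 0.142, 0.220 and 0.341 in control libraries. Thus the ligand was listed above its receptor only in treated 2.

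**Figure D3:**
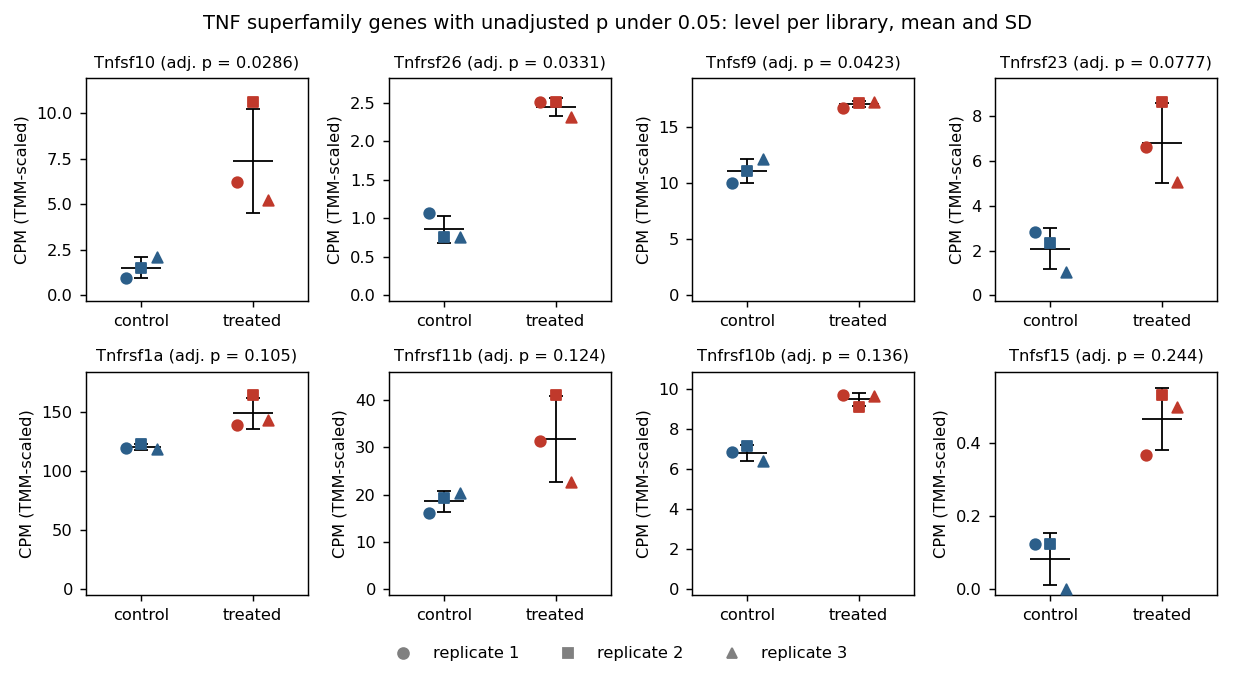
Level per library (y axis, CPM) in control and treated tumours for the 8 members with an unadjusted p under 0.05; horizontal lines are means, bars are SD (n = 3) and symbols mark replicates. Treated libraries lie above all controls in each of the 8 panels, which choosing the panels by p makes likely. Over all genes tested, 12% lie so. Of the 8 members, 3 have an adjusted p under 0.05.

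Among the costimulatory pairs, the ligand of 4-1BB rose and its receptor did not pass the threshold. Tnfsf9, the ligand, which lies on chromosome 17 (ENSMUSG00000035678, 57105325 to 57107757, plus strand), had 16.7, 17.2 and 17.3 CPM in treated libraries, against 10.01, 11.1 and 12.2 CPM in controls. The groups were tight and did not overlap, at a log2 fold change of 0.62 ± 0.11 (1.54-fold, edgeR adjusted p = 0.0423). The call was lost whenever any 1 of the 6 libraries was left out (edgeR adjusted p from 0.076 to 0.226). The antisense gene Gm11110 shares 192 exonic bases, 14.9% of Tnfsf9, and had 386 to 642 counts per library with a log2 difference of 0.001 (edgeR adjusted p = 0.999). Whether the counting used strand is not given in the sources used here.

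Tnfrsf9, which encodes 4-1BB, had 27.3, 35.8 and 34.1 CPM in treated libraries, against 33.2, 29.1 and 31.7 CPM in controls. The groups overlapped, and the log2 fold change was 0.05 ± 0.12 (edgeR adjusted p = 0.886). The FPKM ratio of Tnfsf9 to Tnfrsf9 was 1.295, 1.013 and 1.068 in treated and 0.637, 0.805 and 0.812 in control libraries. The ligand was therefore listed above the receptor in all 3 treated and below it in all 3 control libraries.

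The other costimulatory members did not pass the threshold. The log2 fold change was 0.03 ± 0.31 for Tnfrsf4 (OX40), -0.25 ± 0.28 for Tnfrsf18 (GITR), 0.03 ± 0.66 for Tnfrsf8 (CD30) and -0.71 ± 0.50 for Cd27. For Tnfsf18, the GITR ligand, it was -0.19 ± 0.43. Tnfsf4, the OX40 ligand, reached 15, 0 and 0 counts in treated libraries, against 6, 4 and 27 in controls, and Tnfsf8, the CD30 ligand, had 8, 20 and 3 against 15, 0 and 0. Both were below the filter on low counts. The 17 T cell markers summed lower in every treated library than in the controls. Tcf7 was the largest part of that sum, and without it the groups overlapped. Of these markers edgeR called 0, and 4 were lower at an unadjusted p under 0.05. Their part in these levels was not tested.

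TNF and the lymphotoxins were sparse, whereas 2 of their receptors were the most abundant members. Tnf reached 41, 41 and 12 counts in treated libraries, against 7, 45 and 24 in controls, overlapping widely. Its log2 fold change was 0.23 ± 0.75 (edgeR adjusted p = 0.922). Lta had 0, 8 and 0 counts against 0, 12 and 15, and Ltb had 18, 25 and 25 against 31, 38 and 20 (log2 fold change -0.45 ± 0.46).

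Tnfrsf1a, the broadly expressed death domain receptor of TNF, had 139, 164 and 143 CPM in treated libraries, against 119, 123 and 119 CPM in controls, without overlap. The log2 fold change was small, 0.31 ± 0.07 (edgeR adjusted p = 0.105), and it passed the threshold with DESeq2 and with limma-voom and quality weights. Tnfrsf1b, the TNF receptor found mainly on leukocytes and endothelium, had 13.9, 10.8 and 3.57 CPM in treated libraries, against 6.60, 4.50 and 6.23 CPM in controls. Treated 3 lay below every control and the other treated libraries above them, with a log2 difference of 0.71 ± 0.44 (edgeR adjusted p = 0.478). The summed macrophage markers were ordered alike in treated 1, 2 and 3, at 292.5, 174.9 and 84.7 CPM. In controls 1, 2 and 3 they summed to 235.3, 221.6 and 169.4 CPM, an order that Tnfrsf1b did not follow. Summed neutrophil, NK cell, T cell, dendritic cell, fibroblast, endothelial and skeletal muscle markers had the same falling order across the treated libraries. The part of macrophages in this spread was not tested. Endothelial markers summed to 581 to 626 CPM in treated tumours, against 431 to 479 CPM in controls, and 8 of 17 rose; their part was not tested. Ltbr, the lymphotoxin beta receptor, read 114, 122 and 124 CPM in treated libraries and 124, 130 and 116 CPM in controls. The groups overlapped, at means of 120.0 ± 5.32 CPM in treated tumours, against 123 ± 7.10 CPM in controls (SD, n = 3, log2 fold change -0.04 ± 0.07). Tnfrsf14, the receptor of LIGHT, had a log2 fold change of -0.45 ± 0.40.

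Fas, the receptor of Fas ligand, had 1.64, 2.03 and 0.572 CPM in treated libraries, against 1.02, 0.947 and 0.368 CPM in controls. Replicate 3 was the lowest of each group, the groups overlapped, and the log2 fold change was 0.86 ± 0.55 (edgeR adjusted p = 0.505). Tnfrsf21 (DR6) and Tnfrsf25 (DR3), which also carry death domains, had log2 fold changes of 0.06 ± 0.32 and -0.09 ± 0.68. Tnfrsf25 had 109, 12 and 40 counts in treated libraries, a wide spread that took in the 68, 51 and 44 counts of the controls. Ngfr, the neurotrophin receptor, had a log2 fold change of -0.41 ± 0.72.

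Members that act in B cell survival, wound repair and bone also stayed short of the threshold. Tnfrsf12a, the TWEAK receptor, had 40.7, 66.4 and 40.9 CPM in treated libraries, against 49.4, 54.1 and 50.2 CPM in controls. Its control values lay inside the treated range (log2 fold change -0.06 ± 0.18). Tnfsf12, the TWEAK gene, read 2.88, 1.88 and 2.604 CPM in treated libraries and 2.10, 2.87 and 1.74 CPM in controls, overlapping throughout. Tnfsf12, the APRIL gene Tnfsf13 and their read-through Tnfsfm13 had log2 fold changes of 0.13 ± 0.28, 0.15 ± 0.43 and 0.24 ± 0.27. Tnfsfm13 shares 48.3% of the exonic bases of Tnfsf12 and 60.0% of those of Tnfsf13, so the split of reads among the 3 is uncertain. Tnfsf13b (BAFF) had 30, 8 and 29 counts against 21, 7 and 6, and Tnfsf11 (RANKL) had 0, 14 and 0 against 14, 0 and 20. Counts of Tnfsf11 were 0 in 3 libraries, and the groups overlapped for both genes. The RANK gene Tnfrsf11a had a log2 fold change of -0.46 ± 0.42, and Eda2r, a receptor of ectodysplasin, one of -0.05 ± 0.48. For Tnfrsf19 (TROY) it was -0.10 ± 0.25 and for Tnfrsf13b (TACI) -0.68 ± 0.72. Tnfrsf13c, the BAFF receptor gene, had 8, 4 and 6 counts against 0, 0 and 6, and Tnfsf13os had 5 to 12 counts per library.

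Per gene length, 3 receptors led the members. By mean FPKM over the 6 libraries the order began with Tnfrsf1a (45.9), Ltbr (45.8), Tnfrsf12a (23.0), Tnfrsf9 (10.3), Tnfsf9 (9.65) and Tnfrsf11b (7.88). This order pools both groups, and 2 pairs of neighbours changed places between them. In treated tumours Tnfrsf1a stood at 50.6 ± 3.69 FPKM and Ltbr at 44.99 ± 1.96 FPKM (SD, n = 3), with Tnfrsf1a above Ltbr in all 3 libraries. In controls they stood at 41.2 ± 0.750 and 46.5 ± 2.63 FPKM, with Tnfrsf1a below Ltbr in all 3. Tnfsf9 stood at 11.7 ± 0.215 FPKM and Tnfrsf9 at 10.5 ± 1.37 FPKM in treated tumours, a gap smaller than the SD of Tnfrsf9. In controls they stood at 7.62 ± 0.746 and 10.2 ± 0.686 FPKM, a gap larger than either SD. Tnfsf9 was the most abundant ligand, followed by Tnfsf12 at 1.36 FPKM. No difference in level between genes was tested.

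**Figure D4:**
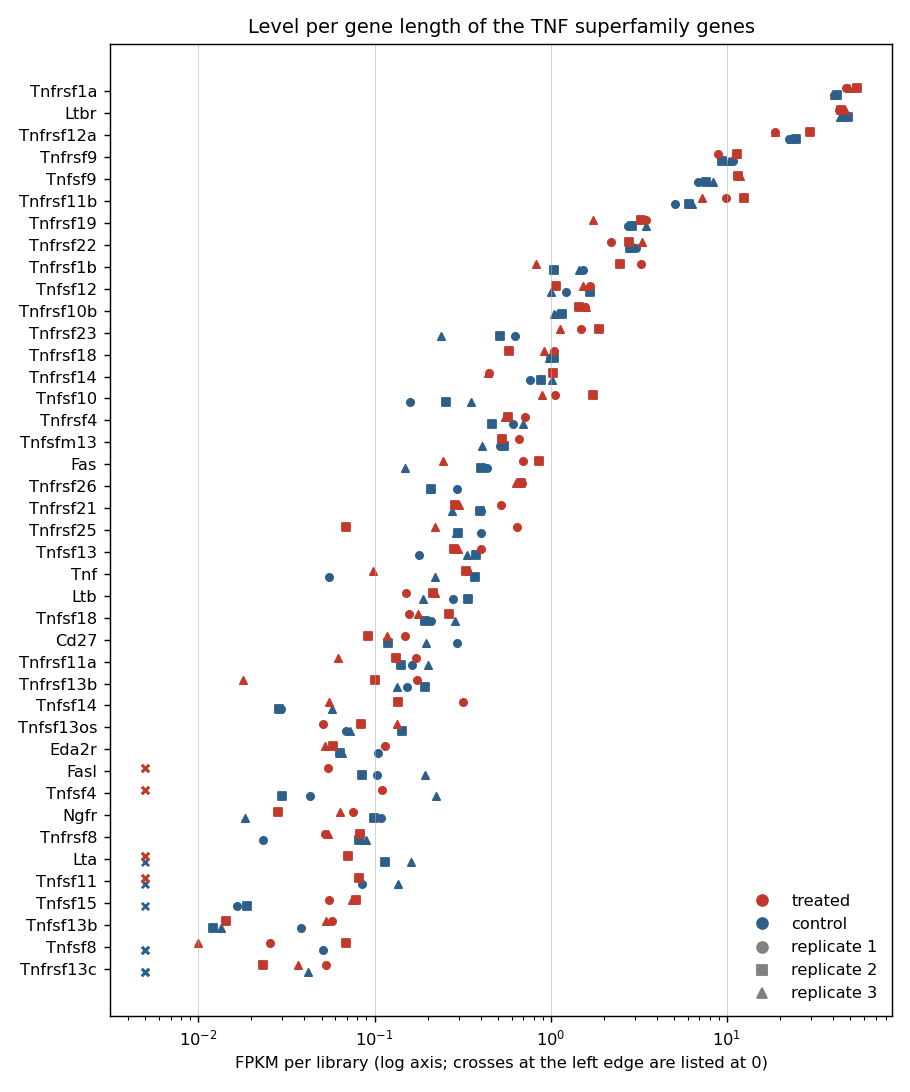
FPKM of the 41 members in each library (x axis, log scale), ordered by mean; red treated, blue control, symbols by replicate, and crosses at the left edge are values listed at 0. Tnfrsf1a and Ltbr lead, Tnfsf9 is the highest ligand, and Tnfsf10 and Tnfrsf26 show the 2 groups apart.

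The 73 tested genes that relay or regulate these receptors form a list chosen with earlier results of these data known. Its shares are therefore descriptions only. Of these genes 3 rose and 0 fell, 4.11% against the 1.36% of all genes that rose. At an unadjusted p under 0.05, 20 were higher and 2 lower, where 9.12% and 6.9% of all genes tested were, and the median log2 fold change was 0.06. Rnf31, the catalytic subunit of the linear ubiquitin ligase, had 40.0, 37.6 and 33.6 CPM in treated libraries, against 21.5, 21.5 and 18.9 CPM in controls (log2 fold change 0.85 ± 0.10, edgeR adjusted p = 0.00544). Daxx, first described as a Fas-binding protein, had 61.7, 81.7 and 58.2 CPM against 33.8, 31.8 and 32.1 CPM (1.05 ± 0.13, edgeR adjusted p = 0.00686). Relb, an NF-kB subunit of the noncanonical pathway, had 13.4, 14.2 and 12.2 CPM against 8.13, 8.54 and 8.81 CPM (0.64 ± 0.12, edgeR adjusted p = 0.0464). For all 3 genes the groups did not overlap. Leaving out any 1 library ended the call of Relb (edgeR adjusted p from 0.0508 to 0.238), and that of Daxx was lost without control 2 or control 3 (up to 0.0633). By sublist, 1 of 16 adaptors, 1 of 16 ubiquitin genes and 1 of 19 kinases and NF-kB genes rose, with 0 of 14 death effectors and 0 of 8 shedding genes. The 3 most abundant genes of the list, Traf4 (32.5 FPKM), Tax1bp1 (27.6 FPKM) and Adam10 (25.6 FPKM), did not pass the threshold (edgeR adjusted p = 0.216, 0.82 and 0.904). Nfkbia (0.81 ± 0.25) and Birc3 (0.83 ± 0.27), picked after their values were seen, did not pass the threshold (edgeR adjusted p = 0.172 and 0.19). Several listed regulators of NF-kB had smaller or opposite log2 fold changes and did not pass it either. Among them were Nfkbie (0.60 ± 0.16), Tnfaip3 (0.35 ± 0.17), Tnip1 (0.26 ± 0.10) and Birc2 (0.16 ± 0.10). Cyld (0.14 ± 0.12), Nfkbib (0.04 ± 0.09), Otulin (-0.07 ± 0.07) and Tnip2 (-0.28 ± 0.16) were others. Bcl3, another listed regulator, had a larger log2 fold change of 1.13 ± 0.53, with overlapping groups (edgeR adjusted p = 0.351).

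Promoters were available from RefSeq for 33 of the 41 members, as 37 entries. The interferon-stimulated element core occurred in 3 of them, and in 3.44% of all 32851 promoters. These sites are shown with flanking bases, the match in capitals, because the interferon-response markers rose in the same tumours.
Tnfrsf1b (chr4:145246821-145247120, minus strand), 10 bases before the start: ggcctgagggTTTCGCTTTCagtcaccagc
Tnfrsf14 (chr4:154928028-154928327, minus strand), 64 bases before the start: ctattttttcTTTCATTTTCacttttcctt
Tnfsf13b (chr8:10006383-10006682, plus strand), 16 bases before the start: tacaaaaactGAAAGTGAAAtgcggaaggc
Distances are counted from the RefSeq start, and the sites of Tnfrsf14 and Tnfsf13b lie inside the longer gene spans used here for expression. None of these 3 genes passed the threshold. TTCNNNGAA occurred in promoters of 9 members and in 8.30% of all promoters, and the NF-kB motif in those of 3 members, Tnfrsf9, Tnfrsf25 and Ltb, and in 1.63% of all promoters.

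Of the 41 members, 23 lie in 9 clusters with gaps of at most 100 kb, by the positions deposited with the counts. The Tnfrsf26, Tnfrsf22 and Tnfrsf23 genes span 78.2 kb with log2 fold changes of 1.51, -0.06 and 1.70. Tnfsf9 and Tnfsf14, 81.7 kb apart, are neighbours too, and Tnfsf14 was below the filter on low counts.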

How the data were processed

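The authors deposited, for each of 6 libraries, a count and an FPKM value per gene; fastp, StringTie and edgeR are listed per the submitters' processing notes, and an aligner and genome build were not given in the sources used here. FPKM as deposited was a constant multiple of the count within 1% for 96.6% to 97.3% of 14615 genes checked per library. Counts were tested with edgeR 4.0.16 (TMM, quasi-likelihood) in R 4.3.3 on 18049 genes kept by filterByExpr (minimum count 10), treated against control, and p-values were adjusted over all of them. For a repeated symbol the row with the highest mean count was used. DESeq2 1.42.0, limma 3.58.1, other filters and scaling, leaving out each library and a replicate block were alternatives. The test was checked on simulated counts. A floor of 3 counts equals 0.0452 to 0.0526 CPM and covers counting error only. Replicate numbers come from the labels, which do not state whether they pair the libraries. Gene positions are those deposited with the counts, and 36 of the 41 members have the same span in GENCODE M21 (GRCm38). Transcript sequences and exon overlaps are from GENCODE M21, and promoters from RefSeq (GRCm38.p6). Coding sequences were aligned with Biopython 1.88. Values per library are given for members with an adjusted or unadjusted p under 0.05, their binding partners, Tnf, Lta, Ltb, Fas, Fasl and the 3 most abundant ligands and receptors, with signalling genes past the threshold and the 3 most abundant; Nfkbia and Birc3 were added after their values were seen. Members and lists were chosen with earlier results of these data known.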

Additional observations from a re-analysis of the deposited data

How the results depend on the processing

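With DESeq2 size factors in edgeR, a stricter filter (minimum count 50) and limma-voom, 3 members rose, the same number as in the result reported. No filter left 0 members that rose, and 10 of all genes that fell. DESeq2 called 6 members, 9 signalling genes and 701 higher and 297 lower genes in all; limma-voom with quality weights called 5, 7, 601 and 191. Leaving out 1 library gave 0 to 2 members, 1 to 4 signalling genes, and 94 to 308 higher and 3 to 39 lower genes. With a replicate block 0 members rose, and 123 genes were higher and 14 lower in all. Deviations of same-numbered libraries correlated at 0.0855, -0.164 and -0.107. These 3 values cannot decide whether same-numbered libraries share a batch, and the labels do not state it. Members that fell numbered 0 in each of these settings. Tnfsf10 was called in 7 of 13 settings, Tnfrsf26 and Tnfsf9 in 5 and Rnf31 in 13. Depth limits the 6 untested members and those with a count of 0 in some libraries, such as Fasl and Tnfsf11.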

Other observations

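Tnfrsf9, known as a receptor of activated T and NK cells, was more abundant per gene length (10.3 FPKM over all libraries) than each of 17 T cell markers, of which Tcf7 was highest at 7.05 FPKM and the median was 0.131 FPKM. It also exceeded each of 10 NK cell markers, led by Gzmb at 2.29 FPKM, and 0 of 9 B cell and 0 of 11 dendritic cell markers were above it. Markers above it came from several lists, with 10 of 10 for melanocytes, 4 of 14 for macrophages, 3 of 10 for fibroblasts, 2 of 17 for endothelium, and 1 each for neutrophils, pericytes and skeletal muscle. The cells that hold this RNA were not determined. This comparison was chosen after the values had been seen.

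Cd40, a costimulatory receptor of the superfamily that the naming rule does not take in, had 4.02, 4.18 and 1.42 CPM in treated and 0.46, 1.07 and 1.02 CPM in control libraries. The groups did not overlap, and the log2 fold change was 1.91 ± 0.49 (edgeR adjusted p = 0.117). Tnfsf14, the gene of LIGHT, had 44, 19 and 8 counts in treated and 4, 4 and 7 counts in control libraries. It was below the filter, and without a filter its log2 fold change was 2.13 ± 0.82 (edgeR adjusted p = 0.398).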
